A study of Mus musculus with 12 samples.

Results

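The subject is the osteoblasts of mice with and without mammary tumor growth in bone. Its members are the 6 arrays whose titles name osteoblasts, 3 with tumor and 3 tumor-free, of 12 arrays in all; the other 6 arrays hold endothelial cells and serve for a comparison at the end. All groups are female C57BL/6 mice, and the cells come from the long bones. In the tumor-bearing group, 500000 EO771 cells, a mammary cancer line derived from this mouse strain, were put into the bloodstream through the heart and were followed in bone by bioluminescence for about 2 weeks. The tumor-free group is described by the absence of tumor alone; the labels do not say whether these mice were injected, and they give no age. Bones of both groups were ground and digested with collagenase, dispase and DNase, red cells were lysed, and cells were sorted. The osteoblast gate took CD51-positive cells and left out cells with GFP, Ter119 (written TR119 in the labels), CD45, Sca1 or CD31. RNA of 5000 cells was amplified for each array. The labels call the arrays biological replicates and speak of 6 to 10 samples prepared, without saying how many mice stand behind an array, so p-values measure the spread between these preparations.

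Osteoblasts are the cells of bone that deposit type I collagen and mineral, and they steer osteoclasts, the cells that resorb bone, through RANKL (Tnfsf11) and its decoy receptor osteoprotegerin (Tnfrsf11b). Together with neighbouring stromal cells they also supply blood stem cells with signals such as CXCL12 and stem cell factor. Mammary cancers often spread to bone, and tumor cells there are known to exchange signals with both osteoblasts and osteoclasts. Values below are log2 values on Affymetrix gene arrays, so a difference of 1 is a doubling; values are given in the order of replicates 1, 2 and 3. Levels of different genes cannot be compared with each other on such an array.

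The sorted cells carried the genes of bone-forming cells. Alpl, the alkaline phosphatase of mineralizing cells, read 10.47, 10.51 and 9.77 in tumor-bearing and 10.67, 10.65 and 10.34 in tumor-free osteoblasts. Sp7, the transcription factor osterix, read 8.75, 8.51 and 7.73 against 8.71, 8.41 and 7.91. Endothelial arrays lay at 6.22 and 6.16 for Alpl and at 5.77 and 5.75 for Sp7 (means with and without tumor). Itgav, which encodes the sorted antigen CD51, had means of 8.85 ± 0.10 and 9.12 ± 0.44 (SD, n = 3). Pecam1, the gene of CD31, had means of 6.59 ± 0.37 and 6.04 ± 0.40 in osteoblasts and of 10.82 and 10.78 in endothelial cells. Runx2 and the osteocalcin genes are not analysed here.

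The osteoblast arrays also carried markers of other cells, and unevenly so. Cartilage markers, 22 genes with 21 of them tested, had a median of 9.18, 9.69 and 7.83 in the tumor-bearing arrays and of 8.04, 9.70 and 8.10 in the tumor-free arrays. Acan, the large proteoglycan of cartilage, read 10.71, 10.77 and 8.52 against 8.84, 11.33 and 8.52. Both groups thus held arrays high and low in cartilage genes. In the full set 17 of the 21 tested markers had a positive difference, with a median of 0.14. With 1 osteoblast array left out the count ran from 9 (tumor-bearing replicate 2, median -0.07) to 19 (tumor-bearing replicate 3, median 0.71, or tumor-free replicate 2, median 0.70); it was 11 without tumor-bearing replicate 1 (median 0.04) and 10 without tumor-free replicates 1 (-0.03) or 3 (-0.02). Sox9, the master factor of cartilage, differed by 1.01 and did not pass the test (9.75, 10.14 and 8.95 against 8.14, 9.77 and 7.91, limma adjusted p = 0.490). Replicate 3 of the tumor-bearing group and replicates 1 and 3 of the tumor-free group were the arrays low in cartilage genes.

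Blood markers pointed at the 2 arrays numbered 3. The 14 markers shared by blood cells had a median of 6.03, 5.93 and 6.22 in tumor-bearing and of 5.90, 5.79 and 6.59 in tumor-free arrays. Ptprc, the gene of CD45, read 5.63, 5.52 and 7.28 against 5.83, 5.10 and 6.31. Granulocyte markers stood apart in 1 array: their median was 7.43 in tumor-free replicate 3 and 5.49 to 6.08 in the other 5 osteoblast arrays. The neutrophil granule gene Ngp read 11.06 in that array and 7.81 to 8.78 in the others. Macrophage markers had medians of 6.59, 5.97 and 6.82 against 6.03, 5.55 and 7.03. For scale, the level a probe set had to exceed to count as lit was 5.51 to 5.59 in these arrays. The effect of each of these arrays on the results was measured by leaving it out.

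Epithelial genes, looked at because the tumor is epithelial, were dim. Their median was 5.68, 5.76 and 5.79 in tumor-bearing and 5.70, 5.91 and 5.90 in tumor-free arrays, and 0 of 13 tested members passed the test, with 0 at an unadjusted p under 0.05. Epcam, an epithelial adhesion gene, had means of 5.40 ± 0.20 and 5.30 ± 0.10 (SD, n = 3) and Krt18, a keratin gene, of 5.68 ± 0.08 and 5.82 ± 0.18. The exception was Krt8, the keratin that pairs with keratin 18, which read 10.13 in tumor-bearing replicate 3 and 6.79 to 7.54 in the other 5 arrays. Neither Epcam (5.35) nor Krt18 (5.77) was high in that array. Joint and tendon markers followed the cartilage markers in tumor-bearing replicate 3: their median was 8.24, 8.94 and 7.14 in tumor-bearing and 7.37, 7.68 and 7.74 in tumor-free arrays, and 10 of 13 were positive with a median difference of 0.25. Without tumor-bearing replicate 3 that median was 0.78, with 7 higher under an unadjusted 0.05 and 1 past the test, and without replicate 3 of both groups it was 1.14, with 8 and 3. It was 0.54 without tumor-free replicate 3, 0.10 and 0.09 without tumor-bearing replicates 1 and 2, and 0.14 with tumor-free replicate 1 left out. The part of these cells in the results was not tested. The remaining marker lists (fibroblast, fat, pericyte, endothelial, muscle, Schwann, osteoclast, T and NK, megakaryocyte, mast cell) had median differences between -0.13 and 0.09, with 0 of their members past the test in the full set. In sorted bulk samples of this kind, fewer cells of a type and less RNA per cell cannot be told apart.

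**Figure D1:**
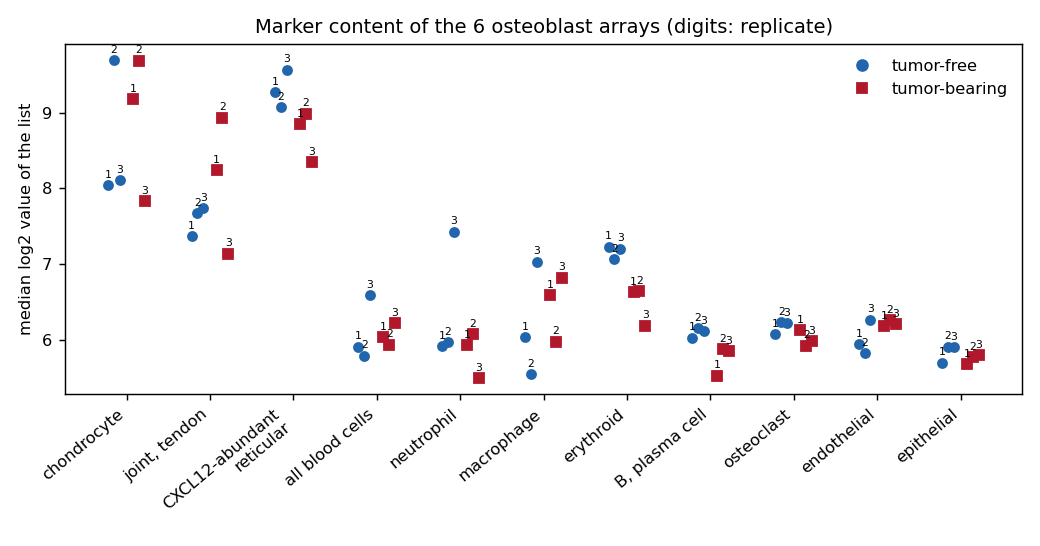
Median log2 value of each cell type's marker genes (vertical axis) in the 6 osteoblast arrays, by marker list (horizontal axis); blue circles are tumor-free and red squares tumor-bearing arrays, and digits give the replicate. Cartilage genes spread from 7.83 to 9.70 across both groups, granulocyte genes reach 7.43 in tumor-free replicate 3, and erythroid genes are lower in the 3 tumor-bearing arrays (6.18 to 6.64) than in the 3 tumor-free arrays (7.06 to 7.23).

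The first question was which genes differ in osteoblasts when tumor grows in the bone. Of 14217 genes tested with limma, 8 passed at an adjusted p under 0.05 (0.0563%), 5 of them higher (0.0352%) and 3 lower (0.0211%) in tumor-bearing mice. A gene could also be described by whether its 3 tumor-bearing arrays all lay on one side of its 3 tumor-free arrays. That held upward for 879 genes (6.18%) and downward for 1188 genes (8.36%), and for each of the 8 genes that passed. An unadjusted p under 0.05 was reached by 1390 genes (9.78%), upward by 825 (5.80%) and downward by 565 (3.97%), and the list counts below are to be read against these shares. The upward ones made up 59.4% of the 1390, or 44.7% where dim genes were not filtered out. For a single gene, an exact permutation test of 3 arrays against 3 cannot go below p = 0.1, so no such test is given.

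Chil1 rose most of the 5 higher genes. It encodes a secreted chitinase-like protein (YKL-40 in humans) made by cartilage cells and macrophages among others and known for its rise in inflammation and in tumors. Chil1 read 9.83, 10.11 and 9.13 in tumor-bearing and 6.19, 6.08 and 6.84 in tumor-free osteoblasts. The lowest tumor-bearing array thus lay far above the highest tumor-free array, and the difference was 3.32 ± 0.25 (log2, SE), or 10.0-fold (adjusted p = 0.00123). The cartilage marker medians of the same arrays were 9.18, 9.69 and 7.83 against 8.04, 9.70 and 8.10. Within the tumor-bearing group the order of Chil1 was that of the cartilage medians, and within the tumor-free group it was not, and the part of cartilage cells in the result was not tested beyond the covariate fit given below.

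Mir99a, a microRNA gene, had the largest downward difference. It read 4.18, 4.06 and 3.84 in tumor-bearing and 8.85, 8.44 and 7.55 in tumor-free osteoblasts, a difference of -4.25 ± 0.50 (log2, SE, adjusted p = 0.0392). The 3 tumor-bearing arrays lay below the level that counts as lit and the 3 tumor-free arrays above it, so the gene was tested through the group in which it is high. What separates the groups is a signal against none above that level, and the size of the difference is set by the background of the array. The endothelial arrays also lay low, with means of 4.01 ± 0.07 with and 4.51 ± 1.20 without tumor (SD, n = 3). MicroRNAs repress messages that match their seed, bases 2 to 8 of the mature strand, so the sequence shows which family the gene belongs to. The hairpin lies at chr16:77598936-77599000 on the plus strand of GRCm38.p6. The mature strands from RefSeq, with the seed in capitals, are set beside the 2 other mouse microRNAs with the same 5p seed, ACCCGUA, of 3 that carry it in the RefSeq table.
mmu-miR-99a-5p: aACCCGUAgauccgaucuugug
mmu-miR-100-5p: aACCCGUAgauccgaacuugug
mmu-miR-99b-5p: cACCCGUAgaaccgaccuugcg
mmu-miR-99a-3p: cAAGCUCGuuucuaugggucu

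The relatives of Mir99a had small differences. Mir99b read 6.93, 6.82 and 6.74 against 6.82, 6.98 and 6.90 (difference -0.07, limma adjusted p = 0.873). Mir100 was too dim to be tested, with means of 3.54 and 3.70. Mir99ahg, the host transcript that carries Mir99a, read 6.06, 6.10 and 6.47 against 6.39, 6.42 and 6.64 and differed by -0.27 (adjusted p = 0.573). The cluster partners Mirlet7c-1 (3.28 and 3.29) and Mir125b-2 (3.12 and 3.16) were dim in both groups. Which part of the transcript the probe set of Mir99a reads is not given in the sources used here. Of 298 microRNA genes, 116 were tested; 27 of these had a positive difference and their median was -0.10. Mir99a was the 1 of them that passed, and 1 was higher and 5 were lower at an unadjusted p under 0.05. Over all genes tested, 5.80% were higher and 3.97% lower at that limit. Dim genes leaned downward in general. In the dimmest of 5 groups of equal size by mean level, 33.1% of genes were positive and the median was -0.07. The part of brightness in the microRNA counts was not tested.

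Myc, the transcription factor that drives growth and ribosome production, rose by 1.43 ± 0.19 (log2, SE), a change of 2.69-fold. It read 10.34, 10.12 and 10.51 in tumor-bearing and 8.97, 9.22 and 8.49 in tumor-free osteoblasts (adjusted p = 0.0415). Pvt1, the noncoding gene next to Myc, read 6.89, 7.66 and 10.68 against 5.87, 6.24 and 5.57. All of its tumor-bearing arrays were higher, replicate 3 far more than the others, and the difference of 2.52 did not pass (adjusted p = 0.367). A dimmer probe set of Pvt1 had a difference of 1.21 with overlapping groups.

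S100a10 encodes the partner of annexin A2 at the cell membrane, where the pair binds plasminogen activators. It read 10.96, 11.04 and 11.20 against 10.18, 10.00 and 10.18, the tightest groups of the 5 higher genes, and rose by 0.95 ± 0.12 (adjusted p = 0.0392). Eif3m, a subunit of the translation initiation factor eIF3, rose by 0.99 ± 0.13 (10.10, 10.30 and 10.57 against 9.39, 9.18 and 9.43, adjusted p = 0.0415). Its second probe set differed by 0.53 with overlapping groups, and the mean of its probe sets did not pass (adjusted p = 0.134). Ftsj1, which methylates transfer RNA, rose by 1.52 ± 0.21 (7.90, 8.31 and 7.75 against 6.29, 6.33 and 6.79, adjusted p = 0.0481).

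Scn7a and Tada2b were the other two genes that fell. Scn7a encodes an atypical sodium channel known from glia and neurons, and read 4.41, 4.86 and 3.75 against 6.56, 6.47 and 5.95 (-1.99 ± 0.27, adjusted p = 0.0430). Its tumor-bearing values lay below the level that counts as lit. Tada2b, an adaptor of the histone-acetylating SAGA complex, read 6.52, 6.47 and 6.78 against 7.82, 7.84 and 7.70 (-1.20 ± 0.16, adjusted p = 0.0430).

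**Figure D2:**
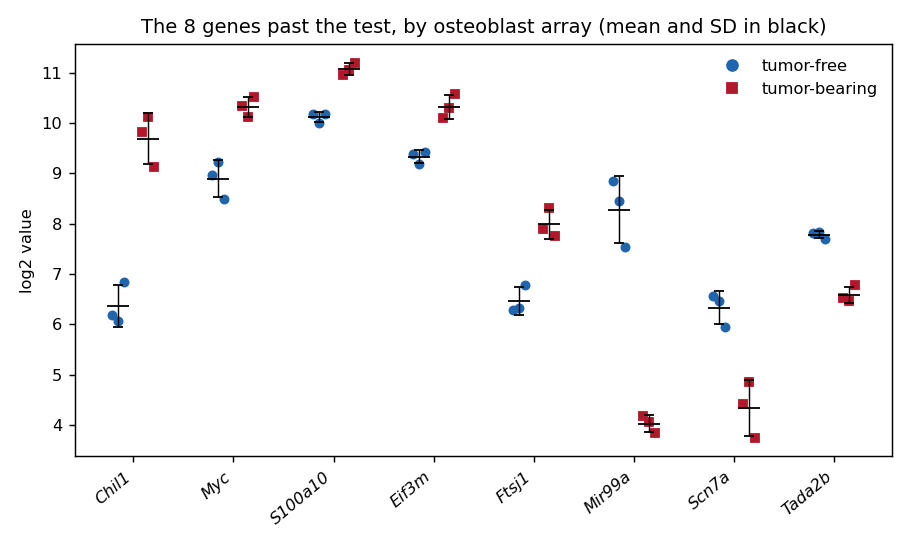
Log2 value of each osteoblast array (vertical axis) for the 8 genes past the limma test (horizontal axis); blue circles are tumor-free and red squares tumor-bearing arrays, and black bars give the mean and SD of 3 arrays. The groups do not overlap in any of the 8 genes, with differences from -4.25 (Mir99a) to 3.32 (Chil1).

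With any 1 of the 12 arrays left out Chil1 remained past the test, while the other 7 calls were each lost in at least 8 of these fits. Mir99a stayed past it without tumor-bearing osteoblast replicate 3, tumor-free osteoblast replicate 3 or endothelial tumor-free replicates 1 or 2. S100a10 stayed without either osteoblast replicate 3 or endothelial tumor-bearing replicates 2 or 3, Eif3m and Ftsj1 without either osteoblast replicate 3, and Scn7a without either of these or tumor-bearing osteoblast replicate 2. Myc stayed without tumor-free osteoblast replicates 2 or 3, and Tada2b without tumor-bearing osteoblast replicate 3 or endothelial tumor-bearing replicate 3. Leaving out any other array ended the call. When limma was fitted without the endothelial arrays, 0 genes passed and 1046 had an unadjusted p under 0.05. Chil1 then differed by the same 3.32 with an adjusted p of 0.138, and by 3.28 (adjusted p = 0.375) with the cartilage marker median as covariate or 3.34 (adjusted p = 0.262) with the blood marker median. The number of calls was 2, 5 and 25 when tumor-bearing osteoblast replicates 1, 2 and 3 were dropped in turn, and 4, 11 and 18 when the tumor-free ones were. It was 1, 3 and 3 without the 3 endothelial tumor-bearing arrays and 2, 3 and 1 without the 3 endothelial tumor-free arrays, which bear on the shared spread alone.

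Several genes differed by more than most of the 8 but did not pass, with more spread among their arrays. Kcnma1, the large-conductance potassium channel, had the largest upward difference of all genes tested: 11.01, 10.75 and 12.18 against 8.53, 5.69 and 7.29, a difference of 4.15 ± 0.90 (log2, SE, adjusted p = 0.178). Its second probe set pointed the same way with groups apart (1.36). Saa3, an acute-phase serum amyloid, read 8.90, 9.81 and 7.92 against 5.02, 5.10 and 6.54 (adjusted p = 0.0747), with 1 of the 3 tumor-free arrays above the lit level. Glud1, the glutamate dehydrogenase of mitochondria, read 9.40, 8.38 and 9.35 against 6.93, 7.18 and 7.35, a difference of 1.89 (adjusted p = 0.0618). All of these tumor-bearing arrays lay above all tumor-free arrays.

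Among genes with a group mean of at least 8, groups apart and an unadjusted p under 0.05, 264 were higher and 84 lower. Bright genes leaned upward in general, so this surplus is not a separate result. Of the 2844 brightest genes tested, 64.9% had a positive difference, and 10.8% met that p limit upward against 2.78% downward. Over all genes tested, groups lay apart upward in 879 and downward in 1188. Adamts9, a protease of matrix proteoglycans, read 8.68, 8.68 and 8.82 against 10.77, 10.29 and 9.70, a difference of -1.53 (adjusted p = 0.353). Its 5 other probe sets had differences from -0.86 to 0.47, and none of them kept the groups apart, so this value belongs to 1 probe set. Mrps26, a mitochondrial ribosomal protein, differed by -1.53, the protease gene Ctse by -1.48, Pmm2, a glycosylation enzyme, by -1.32, and the alcohol dehydrogenase gene Adh1 by -1.31. The pentose enzyme gene Dera (5.83, 5.64 and 5.85 against 6.62, 6.85 and 7.26) and the membrane protein gene Gpm6b (7.18, 6.94 and 6.50 against 7.74, 7.91 and 7.90) had steadier values, with adjusted p of 0.0707 and 0.101.

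**Figure D3:**
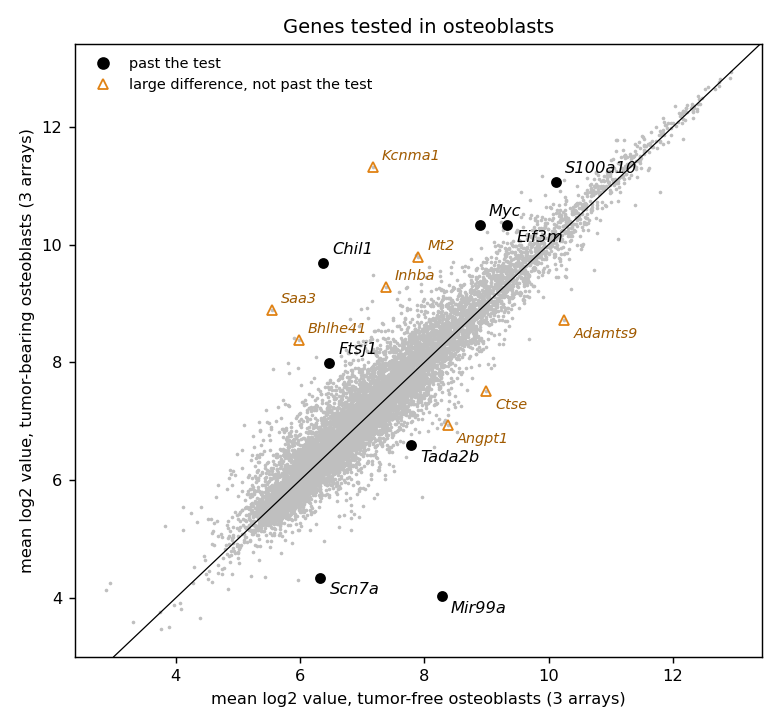
Mean log2 value in tumor-bearing (vertical axis) against tumor-free osteoblasts (horizontal axis), 3 arrays each, for the 14217 genes tested; the line marks equal values. Filled black circles are the 8 genes past the test and open orange triangles are 8 genes with large differences that did not pass, among them Kcnma1 at 4.15 and Adamts9 at -1.53.

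Across all genes tested the median difference was -0.02 and 46.7% were positive, but this shifted with brightness. With genes split by mean level into 5 groups of equal size, from the dimmest to the brightest, the median difference went from -0.07 over -0.05, -0.03 and 0.03 to 0.11, and the share of positive values from 33.1% to 64.9%. In the brightest group, 10.8% of genes were higher and 2.78% lower at an unadjusted p under 0.05. After quantile normalization the dimmest and brightest groups had medians of -0.04 and 0.06. Lists of bright genes are therefore to be read against the brightest group as well as against all genes. By median level these are the heat shock, translation initiation, proteasome, annexin and S100, endoplasmic reticulum, immediate early, bone matrix and niche lists.

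The bone-forming genes showed no difference that passed. Of 16 tested bone matrix genes, 9 were positive, the median was 0.05, and none was under an unadjusted p of 0.05 in either direction. Col1a1, the main collagen of bone, read 11.27, 11.05 and 10.84 against 11.30, 10.99 and 10.80, so each array had a near match in the other group. Ifitm5, a membrane protein of osteoblasts, had the smallest p of the list (7.78, 9.20 and 8.14 against 8.11, 7.02 and 7.79, difference 0.74, adjusted p = 0.547). The 21 tested genes of collagen folding, hydroxylation and cross-linking had a median of 0.10, also with none under 0.05. With 1 osteoblast array left out, the matrix median ran from -0.08 (tumor-bearing replicate 1) to 0.14 (tumor-bearing replicate 3) with at most 1 member under 0.05 in a direction, and the collagen list had 2 higher members without tumor-bearing replicate 3 and 3 (median 0.18) without tumor-free replicate 2.

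Osteoblast transcription factors (15 tested, 6 positive, median -0.05) and genes of mineralization and osteocytes (14 tested, 5 positive, median -0.10) each had 1 member higher at an unadjusted p under 0.05. The median of the transcription factors turned to 0.06 without tumor-bearing replicate 3, 0.07 without tumor-free replicate 1 and 0.02 with tumor-free replicate 2 left out. The higher members were Fosl1, a partner of Jun that promotes bone formation (7.51, 7.14 and 7.47 against 6.74, 6.98 and 6.68, difference 0.58, adjusted p = 0.280), and Pdpn. Pdpn, a mucin of early osteocytes and of several stromal cells, read 9.52, 8.93 and 8.48 against 8.73, 7.30 and 6.80 (1.37, adjusted p = 0.344). Dmp1, a matrix protein of osteocytes, read 10.22, 10.46 and 10.06 against 11.09, 10.38 and 10.41 (-0.38, adjusted p = 0.588). The groups overlapped for Pdpn and Dmp1.

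Among the factors by which osteoblasts act on osteoclasts, 10 of 15 tested genes were positive and the median was 0.08. Tnfsf11, which encodes RANKL, read 8.35, 8.52 and 8.36 against 8.69, 8.14 and 8.21 (0.06, adjusted p = 0.925). Its decoy receptor Tnfrsf11b read 8.66, 6.55 and 6.58 against 6.40, 7.59 and 6.60, with 1 high array in each group (0.40, adjusted p = 0.820). Ptgs2, the inducible cyclooxygenase, showed an unequal spread: 10.12, 10.40 and 10.37 in tumor-bearing but 7.79, 11.52 and 8.48 in tumor-free arrays (1.04, adjusted p = 0.676). The ephrin gene Efnb2 was the 1 member under an unadjusted p of 0.05, with 8.30, 7.38 and 6.76 against 5.86, 7.22 and 6.26 (1.03, adjusted p = 0.474). Leaving out tumor-bearing replicate 1 or tumor-free replicate 3 brought that count to 0. It was 3 without tumor-bearing replicate 3, and 4 with tumor-free replicate 2 left out, where 1 member passed the test and the median was 0.33. Without tumor-free replicate 1 the median was 0.23.

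Inflammatory genes were read in 5 lists. Of 16 tested acute-phase and secreted defence genes, 10 were positive with a median of 0.13. Chil1 was the member past the test, and 6 lay above at an unadjusted p under 0.05. Without replicate 3 of either group, 12 of the 16 were positive, and without tumor-bearing replicates 1 or 2, 9 were. Lcn2 is also on the granulocyte list, of which 0 of 12 tested members were positive (median -0.92). The median level of that list was highest in tumor-free replicate 3. Without that array 2 granulocyte markers were positive and their median difference was -0.22. Without replicate 3 of both groups 5 were positive, with a median of -0.08. The part of granulocytes in the value of Lcn2 was not tested. Lcn2 (-0.64) and Cp (-0.04), other acute-phase genes, were not among the 6 higher members. The metallothioneins Mt2 and Mt1, small proteins that bind zinc and copper and are induced by metals, glucocorticoids and cytokines, were. Mt2 read 10.10, 9.69 and 9.56 against 7.91, 7.88 and 7.90, and Mt1 8.95, 9.74 and 9.03 against 8.74, 7.77 and 8.03. The tumor-free arrays of Mt2 hardly varied, and all tumor-bearing arrays were higher in both genes. The differences were 1.89 ± 0.31 (adjusted p = 0.0747) and 1.06 ± 0.28 (adjusted p = 0.280).

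The promoters of both metallothioneins were searched on both strands for the core of the metal response element, written TGCACNC or TGCGCNC, because the genes lie next to each other and had the same direction. The 250 bases before each start, from RefSeq on GRCm38.p6 with matches in capitals, hold 3 matches in Mt2 at chr8:94172368-94172617 and 1 in Mt1 at chr8:94178839-94179088, both on the plus strand. Of 32851 promoters of this length, 21.4% hold at least 1 match and 5.17% at least 2. Bases after the RefSeq start or further upstream were not searched, so the counts hold for these windows and not for the whole promoters.
Mt2: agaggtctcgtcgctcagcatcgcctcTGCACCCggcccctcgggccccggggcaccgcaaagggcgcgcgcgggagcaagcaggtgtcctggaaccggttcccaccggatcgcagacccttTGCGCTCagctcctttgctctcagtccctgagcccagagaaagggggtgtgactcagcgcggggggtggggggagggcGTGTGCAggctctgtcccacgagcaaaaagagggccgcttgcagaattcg
Mt1: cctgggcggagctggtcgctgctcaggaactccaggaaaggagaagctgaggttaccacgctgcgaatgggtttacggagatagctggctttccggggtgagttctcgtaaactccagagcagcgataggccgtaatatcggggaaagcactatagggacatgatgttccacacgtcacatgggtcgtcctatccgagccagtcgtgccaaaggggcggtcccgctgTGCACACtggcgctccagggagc

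Interferon-stimulated genes were positive in 16 of 19 tested members with a median of 0.45. An unadjusted p under 0.05 was reached by 7, all higher; none passed the test. Zbp1, a sensor of nucleic acids, read 7.48, 7.19 and 8.06 against 6.89, 6.83 and 6.46 (0.85, adjusted p = 0.238). Irf7, the factor that amplifies interferon production, read 6.44, 6.57 and 7.15 against 5.64, 6.37 and 6.13 (0.67, adjusted p = 0.361). Ifih1, a sensor of double-stranded RNA, read 8.48, 7.58 and 9.10 against 7.39, 7.60 and 7.12, and its groups overlapped. In all 3 genes tumor-bearing replicate 3 was the highest array. The number of members under 0.05 was 3 with either that array or tumor-free replicate 2 left out, and 4 with tumor-free replicate 1 left out; without tumor-bearing replicate 3, 12 members were positive and the median was 0.30. Tumor-bearing replicate 3 was also higher than its group in Ptprc (7.28) and Krt8 (10.13); the part of other cells in the result was not tested.

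Chemokines and inflammatory cytokines were positive in 11 of 16 tested members (median 0.26), with 5 higher under 0.05. Cxcl10, which draws T cells and is induced by interferon, read 9.03, 9.16 and 9.39 against 7.73, 7.38 and 7.64. These were tight groups far apart, with a difference of 1.61 ± 0.34 that did not pass (adjusted p = 0.178). Ccl2, which draws monocytes, read 8.90, 7.92 and 9.43 against 7.67, 7.84 and 7.54 (1.06, adjusted p = 0.308). Of the NF-kappaB list, 13 of 17 were positive (median 0.18) with 4 higher under 0.05, among them the adhesion gene Icam1 (7.41, 7.83 and 7.64 against 6.82, 6.98 and 7.33) and the subunit gene Rel (9.42, 10.26 and 9.18 against 7.88, 8.89 and 8.49). The 4 became 1 without tumor-bearing replicate 2, 2 with tumor-free replicate 1 left out, and 6 without tumor-bearing replicate 3 or with tumor-free replicate 2 left out.

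The interleukin 6 family genes had no common direction, with 9 of 17 positive and a median of 0.02 (0.16 without tumor-bearing replicate 3, -0.04 without tumor-bearing replicate 1). The shared receptor Il6st was lower in all tumor-bearing arrays (10.30, 10.08 and 10.04 against 10.55, 10.41 and 10.55, difference -0.37), while the kinase genes Jak1 (0.37) and Jak2 (0.69) were higher in all of them. None of the 3 passed (adjusted p = 0.302, 0.396 and 0.338).

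Heat shock genes had the highest median of the 30 pathway lists. These chaperones and cochaperones help proteins fold, and many of them, but not all, are switched on by the factor HSF1 when proteins are damaged. All 18 tested members had a positive difference, with a median of 0.56, against 46.7% positive over all genes and 64.9% in the brightest group. None passed the test; 11 had an unadjusted p under 0.05, all higher, and 9 kept the groups apart upward. The median over the list was 10.05, 10.10 and 10.10 in tumor-bearing arrays and 9.41, 9.84 and 9.06 in tumor-free arrays, which did not overlap.

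Hspd1, the chaperonin of mitochondria, had the smallest p of them, with 11.80, 11.77 and 11.73 against 10.99, 11.26 and 11.03 (0.68 ± 0.10, adjusted p = 0.0647). Its second probe set differed by 0.49, also with groups apart. Hspe1, its partner in the same folding chamber, had a small difference and little spread, with groups apart: 12.44, 12.35 and 12.28 against 12.01, 12.05 and 12.04 (0.32, adjusted p = 0.280). Hsph1, a nucleotide exchange factor of HSP70, read 11.17, 11.34 and 10.98 against 9.95, 10.12 and 9.59 (1.27 ± 0.30, adjusted p = 0.211).

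Dnaja1, a cochaperone of HSP70, read 11.79, 11.90 and 11.62 against 11.23, 11.33 and 11.09 (0.55, adjusted p = 0.183), and Chordc1, a cochaperone of HSP90, 8.45, 8.58 and 8.66 against 7.73, 8.24 and 7.56 (0.72, adjusted p = 0.211). Hspb1, the small heat shock protein HSP27, had the largest difference of the list at 1.55, with 9.61, 9.84 and 8.32 against 7.51, 7.46 and 8.15. Its tumor-bearing replicate 3 lay just above its tumor-free replicate 3. Under the 24 alternatives the number of positive members was 17 or 18 and the median 0.47 to 0.75. The number under 0.05 was 7 to 15, the lowest without tumor-free replicate 3.

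Heat shock factor binds inverted repeats of the unit GAA, so the 250 bases before each start were searched on both strands for GAANNTTC or TTCNNGAA. Of the 18 tested heat shock genes, 14 had a promoter entry in RefSeq (GRCm38.p6), and 7 of the 14 (50.0%) held a match in at least 1 of their windows. The share over all 27025 genes in the table, counted alike, was 14.5%. The list was drawn up from known heat shock genes, so these shares describe the list and do not bear on the difference between the groups. Of the members named above, Chordc1 had 0 matches and Hspb1 had 2. Activity of HSF1 was not tested. Hspd1 and Hspe1, 2 of the 7, share their site. Hspd1 and Hspe1 start from opposite strands with windows that overlap by 215 bases, and both windows hold the same 3 overlapping matches. A second start of Hspd1 has a window (chr1:55088244-55088493, minus strand) with 0 matches. The 30 bases around the shared matches, chr1:55088053-55088082, are printed on the strand of Hspe1 with the matches in capitals, beside the window of Hsph1 (chr5:149636337-149636586, minus strand) with 1 match.
Hspe1 and Hspd1: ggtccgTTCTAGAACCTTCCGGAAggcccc
Hsph1: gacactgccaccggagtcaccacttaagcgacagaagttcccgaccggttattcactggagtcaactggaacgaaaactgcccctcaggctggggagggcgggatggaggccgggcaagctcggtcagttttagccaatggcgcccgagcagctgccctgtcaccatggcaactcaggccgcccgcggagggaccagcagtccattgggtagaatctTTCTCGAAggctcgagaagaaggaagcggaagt

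**Figure D4:**
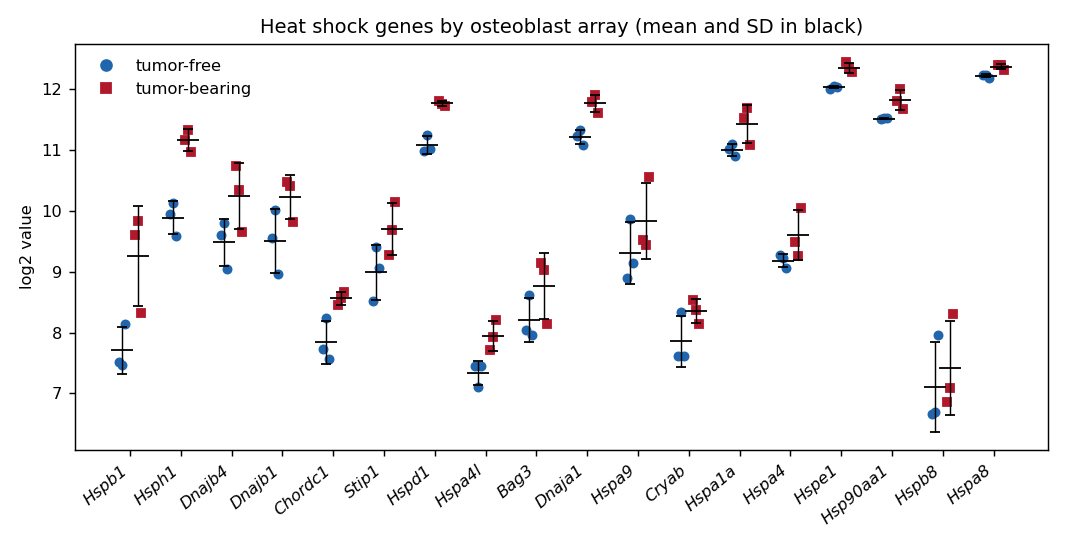
Log2 value of each osteoblast array (vertical axis) for the 18 tested heat shock genes (horizontal axis, ordered by difference); blue circles are tumor-free and red squares tumor-bearing arrays, and black bars give the mean and SD of 3 arrays. The tumor-bearing mean is higher in all 18 genes, from 0.15 in Hspa8 to 1.55 in Hspb1, and the groups are apart in 9.

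Immediate early genes, which answer growth factors and stress within minutes, were positive in 22 of 23 members with a median of 0.38; 5 were higher under an unadjusted 0.05 and none passed. Atf3, a stress-induced repressor, read 10.19, 10.20 and 10.19 against 9.87, 9.08 and 9.04 (0.86, adjusted p = 0.350). Klf6, a zinc finger factor, read 9.76, 9.38 and 9.57 against 8.94, 9.15 and 9.05 (0.52, adjusted p = 0.211), and Btg2, an antiproliferative gene, 10.25, 10.31 and 9.26 against 8.88, 8.83 and 9.03 (1.02, adjusted p = 0.363). Members known as the fastest to respond, Fos (0.16), Junb (0.01) and Egr1 (0.27), showed small differences. The count of 5 became 12 without tumor-bearing replicate 3, 3 without tumor-bearing replicate 1 or tumor-free replicate 3, and 2 without tumor-bearing replicate 2.

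Other stress programs were described in the same way. Genes of protein folding in the endoplasmic reticulum were positive in 15 of 22 (median 0.21). At the unadjusted p limit used above, 2 of them were higher and 0 lower. In the brightest group 64.9% of genes were positive, with a median of 0.11, and 10.8% were higher at that limit. The part of brightness in the counts of this list was not tested. Its member Pdia6, a disulfide isomerase, read 9.58, 9.45 and 9.92 against 8.90, 9.13 and 8.68 (0.74, adjusted p = 0.178). Genes of the amino acid response were positive in 13 of 18 (median 0.29). Psat1, an enzyme of serine synthesis, read 6.80, 6.45 and 6.79 against 5.99, 5.99 and 5.94, with hardly any spread in the tumor-free arrays (0.70 ± 0.13, adjusted p = 0.117). Antioxidant genes were positive in 12 of 19 (median 0.11), led by the glutathione reductase gene Gsr (0.60), and p53 targets in 8 of 12 (median 0.04), led by the kinase gene Plk2 (0.93). None of the members of these 4 lists passed. The median of the p53 targets was 0.28 with tumor-free replicate 2 left out, and that of the amino acid response 0.19 without tumor-bearing replicate 3.

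Growth genes beside Myc were read next. Of 30 tested translation initiation factors, 26 were positive and the median was 0.31, above the 0.11 of the brightest group; Eif3m passed and 8 were higher under an unadjusted 0.05. Eif3f, another eIF3 subunit, read 9.10, 9.10 and 9.54 against 8.44, 8.24 and 8.96 (0.70, adjusted p = 0.402). Eif4e, which binds the cap of messages, read 9.18, 9.21 and 9.50 against 8.89, 8.32 and 9.09 (0.53, adjusted p = 0.410), and both genes kept the groups apart. Of Eif4e, 2 further probe sets had differences of 0.03 and 0.08 with overlapping groups, and the mean of its probe sets differed by 0.21 (adjusted p = 0.631). The 8 became 2 without tumor-bearing replicate 3 and 4 with tumor-free replicate 1 left out, and the median without that tumor-bearing array was 0.16.

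The Myc network and ribosome biogenesis list includes Myc, its 1 member past the test. It was positive in 21 of 30 (median 0.16), with 5 higher under 0.05, Myc among them. Without tumor-bearing replicate 3 this was 14 of 30, a median of 0.00 and 3 higher, and with tumor-free replicate 1 left out 3 were higher. Nop58, a protein of nucleolar RNA modification, read 10.00, 10.17 and 10.30 against 9.64, 9.67 and 9.58 (0.53, adjusted p = 0.302), and Nip7, which acts in ribosome assembly, 7.66, 7.68 and 8.22 against 7.25, 7.37 and 6.87 (0.69, adjusted p = 0.286). Proteasome subunits were positive in 26 of 31 (median 0.15), with 3 higher and 1 lower under an unadjusted 0.05. The brightest group had a median of 0.11 and 10.8% higher, near the median and the share of higher subunits. Without tumor-bearing replicate 3, 15 subunits were positive and the median was 0.00. Psma5 read 10.46, 10.14 and 10.97 against 9.22, 9.62 and 9.91 (0.94, adjusted p = 0.194), and its second probe set also kept the groups apart (0.64). Psmd4, in contrast, was -0.77.

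Cell cycle genes pointed both ways, with 20 of 32 positive and a median of 0.05, or 12 positive and -0.15 without tumor-bearing replicate 3 and 24 positive and 0.18 without tumor-bearing replicate 1. Kif23, a kinesin of cell division, read 7.82, 7.94 and 7.56 against 7.31, 6.85 and 6.94 (0.74 ± 0.14, adjusted p = 0.118). Mki67, the proliferation marker, read 8.37, 7.51 and 7.90 against 8.69, 8.42 and 9.13 (-0.82, adjusted p = 0.308). Both kept the groups apart, in opposite directions.

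Genes of glycolysis and hypoxia were positive in 19 of 26 (median 0.18), with 3 higher under an unadjusted 0.05. With tumor-free replicate 2 left out 12 were higher and the median was 0.42, without tumor-bearing replicate 3 there were 5 (median 0.13), and without tumor-free replicate 1 the median was 0.12. Without replicate 3 of both groups it was 0.06. The list held Ldha, lactate dehydrogenase, at 8.53, 8.79 and 9.26 against 8.01, 8.33 and 7.80 (0.82, adjusted p = 0.286). Car9, a hypoxia-induced carbonic anhydrase, was at or below the lit level in the tumor-bearing arrays (5.45, 5.43 and 5.24 against 5.53, 5.95 and 5.79). Cholesterol synthesis genes were positive in 11 of 15 (median 0.26, or 0.05 without tumor-free replicate 1). Msmo1, a sterol oxidase, read 7.12, 8.16 and 7.58 against 5.62, 6.51 and 5.89, apart in all arrays (1.61 ± 0.29, adjusted p = 0.113).

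Annexins and S100 proteins, calcium-binding proteins of the membrane and cytoskeleton, were positive in 14 of 17 with a median of 0.28. S100a10 passed and 5 were higher under an unadjusted 0.05. Anxa1, a regulator of inflammation, read 9.88, 10.00 and 10.08 against 9.12, 8.98 and 9.44 (0.81 ± 0.18, adjusted p = 0.178). Anxa4 read 8.37, 8.64 and 8.85 against 8.16, 7.69 and 6.82 (1.06), and S100a4, known from motile and fibroblastic cells, 10.13, 10.15 and 10.61 against 9.56, 9.73 and 9.44 (0.72). Anxa2, the binding partner of the S100a10 protein, read 10.00, 10.02 and 9.89 against 9.67, 9.54 and 9.15 (0.52, adjusted p = 0.437). All 4 kept the groups apart. Without tumor-free replicate 3 the count of 5 became 3.

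Of the protease list, 18 of 26 were positive (median 0.16), with 6 higher and 1 lower under an unadjusted 0.05. The lower one was Adamts9, a value of 1 probe set as described above, and the higher ones included the plasminogen activators. Plat, tissue plasminogen activator, read 6.99, 7.17 and 6.83 against 6.09, 6.23 and 6.03 (0.88 ± 0.19, adjusted p = 0.178). Plau, urokinase, read 7.07, 6.94 and 7.44 against 6.51, 6.02 and 6.68 (0.75, adjusted p = 0.360). Plaur, the urokinase receptor, differed by 0.63 with groups apart. The count of 6 became 2 without tumor-free replicate 2.

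Glucocorticoid-responsive genes were positive in 13 of 16 (median 0.29), with 6 higher and 1 lower under an unadjusted 0.05 in the full set. They share Mt1 and Mt2 with the defence genes, and Cebpd, an inflammatory transcription factor (8.43, 8.30 and 7.82 against 7.34, 7.41 and 7.58, difference 0.74). Fkbp5, a cochaperone of the glucocorticoid receptor, read 7.17, 7.04 and 7.41 against 6.53, 6.90 and 6.65 (0.52, adjusted p = 0.344). Sult1a1, a sulfotransferase, was the lower member, with 5.85, 6.09 and 5.63 against 7.22, 7.06 and 6.57 (-1.09, adjusted p = 0.257).

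Among clock genes 11 of 17 were positive with a median of 0.08, but single members stood out. Bhlhe41, a repressor of the clock that also responds to hypoxia and cytokines, read 8.74, 8.92 and 7.48 against 5.33, 5.25 and 7.35 (2.40 ± 0.54, adjusted p = 0.183), also with 1 tumor-free array above the lit level. Tumor-bearing and tumor-free replicate 3 almost met. Nfil3, another clock repressor, read 8.58, 8.62 and 8.40 against 6.45, 8.21 and 6.94 (1.33, adjusted p = 0.302). The time of day of the sampling is not given in the sources used here.

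Ligands and inhibitors of the TGF-beta and BMP families had no common direction (18 of 35 positive, median 0.00, and from -0.12 to 0.06 without 1 osteoblast array). Inhba, whose product forms activin A, read 10.11, 9.55 and 8.18 against 6.79, 7.35 and 7.999, again with the 2 arrays numbered 3 close together (1.91 ± 0.43, adjusted p = 0.192). Ltbp2, a matrix protein of the latent TGF-beta binding family, read 7.44, 7.50 and 6.87 against 8.58, 8.04 and 7.87 (-0.89 ± 0.21, adjusted p = 0.196).

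By median level (6.42) the Wnt list lies in the next to dimmest of the 5 brightness groups. Of that group 38.3% of genes were positive, with a median of -0.05, and 3.76% were lower at an unadjusted p under 0.05. Wnt genes were positive in 10 of 31 (median -0.08). Under an unadjusted 0.05, 1 was lower, the coreceptor Lrp4 (-0.27), and none was higher. Without tumor-bearing replicate 3 there were 5 higher and 1 lower, without tumor-bearing replicate 1 or with tumor-free replicate 2 left out 2 lower, and without tumor-bearing replicate 2 or tumor-free replicate 1 none lower. Dkk1, a secreted Wnt inhibitor, read 6.41, 6.54 and 6.51 against 8.46, 6.14 and 7.67, so that its tumor-free arrays spread widely (-0.94, adjusted p = 0.533). With tumor-free replicate 2 left out it passed the test (-1.58, adjusted p = 0.0426), and without tumor-free replicate 1 the difference was -0.42. Of the growth factors, 9 of 25 were positive. Pdgfc, a platelet-derived growth factor, read 9.28, 9.61 and 8.72 against 7.82, 7.86 and 8.17 (1.25 ± 0.23, adjusted p = 0.117), and Angpt1, the ligand of the endothelial receptor Tie2, 7.58, 6.80 and 6.44 against 8.57, 8.55 and 8.01 (-1.43 ± 0.49, adjusted p = 0.368).

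Angpt1 is also a member of the pathway list with the lowest median, the niche factors of marrow stroma. Of 20 tested members, 1 was positive and the median was -0.47; 10 kept the groups apart downward, 6 were lower at an unadjusted p under 0.05, and none passed. Ebf3, a transcription factor that keeps the marrow niche open, read 7.77, 8.05 and 7.38 against 8.96, 8.75 and 8.57 (-1.03 ± 0.18, adjusted p = 0.101). Its relative Ebf1 read 8.54, 8.36 and 8.04 against 9.17, 8.92 and 9.52 (-0.89, adjusted p = 0.338). Ebf1 is also on the list of B cell and plasma cell markers read below, and the part of such cells in its value was not tested. Cxcl12 itself read 10.60, 10.49 and 10.15 against 10.98, 10.73 and 10.76, apart but close (-0.41, adjusted p = 0.717).

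Lepr, the leptin receptor that marks these stromal cells, read 10.20, 9.93 and 9.62 against 10.22, 10.42 and 10.35 (-0.41, adjusted p = 0.708). Kitl, which encodes stem cell factor, overlapped (-0.34). The niche list shares 8 of its genes with the markers of CXCL12-abundant reticular cells, of which 0 of 12 were positive (median -0.51). The marker median was 8.85, 8.99 and 8.35 in tumor-bearing and 9.27, 9.08 and 9.57 in tumor-free arrays. Adipoq and Lpl, which these cells and fat cells express, differed by -0.59 and -0.61. The share of such cells in the gate was not measured, and their part in the result was not tested. The 6 lower niche members became 2 without tumor-bearing replicate 3 and 1 without replicate 3 of both groups; 18 of 20 stayed negative in either case.

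Erythroid markers lay lower in tumor-bearing osteoblasts without overlap of their medians (6.63, 6.64 and 6.18 against 7.23, 7.06 and 7.20). All 7 tested members were negative with a median of -0.52, and 4 were lower under an unadjusted 0.05, with none past the test. Slc4a1, the anion exchanger of red cells, read 7.28, 7.07 and 6.30 against 7.64, 8.03 and 8.92 (-1.32 ± 0.32, adjusted p = 0.211). Alas2, the heme synthesis enzyme of erythroid cells, read 6.57, 6.68 and 6.25 against 7.20, 7.33 and 7.12 (-0.72, adjusted p = 0.354), and Hemgn 7.95, 7.56 and 6.50 against 8.46, 8.18 and 8.57 (-1.06). The count of 4 was 1 without replicate 3 of both groups, where 6 of the 7 stayed negative. The part of blood cells in the osteoblast results was not tested. Of 8 tested B cell and plasma cell markers 1 was positive, and Igll1, part of the pre-B cell receptor, read 6.00, 6.02 and 6.00 against 6.42, 6.46 and 6.59 (-0.48 ± 0.09, adjusted p = 0.117).

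**Figure D5:**
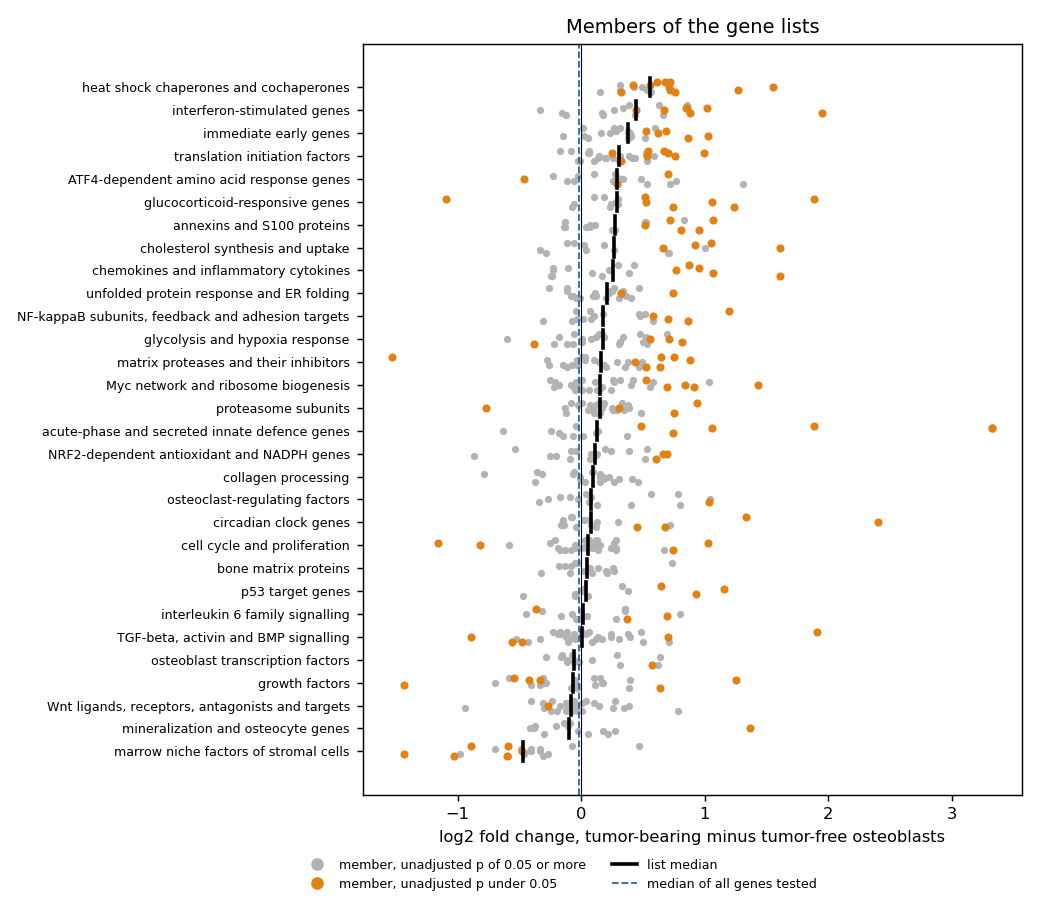
Difference of every tested member (points, horizontal axis, log2 tumor-bearing minus tumor-free osteoblasts) of the 30 pathway lists (rows), with members under an unadjusted p of 0.05 in orange, list medians as black bars and the median of all 14217 genes as a dashed line. Heat shock genes have the highest median (0.56, 18 of 18 positive) and marrow niche factors the lowest (-0.47, 1 of 20 positive), while bone matrix genes lie around 0.05.

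Whether a tumor effect differed between osteoblasts and endothelial cells was tested as the difference of the 2 effects. It passed for 4 genes (0.0281%), and Chil1 was the 1 of them that had passed in osteoblasts: its effect was 3.32 in osteoblasts and -0.02 in endothelial cells (difference 3.34 ± 0.36, log2, SE, adjusted p = 0.0179). That call was lost without tumor-free osteoblast replicate 1, any endothelial tumor-bearing array or endothelial tumor-free replicates 2 or 3, with adjusted p of 0.0631 to 0.0925. For the other 7 genes past the osteoblast test the difference did not pass. It was -3.76 for Mir99a (adjusted p = 0.254), -2.20 for Scn7a (0.222), -1.14 for Tada2b (0.299), 1.29 for Ftsj1 (0.371), 1.24 for Eif3m (0.126), 1.10 for Myc (0.380) and 0.96 for S100a10 (0.222). The niche genes had their widest gap in Angpt1, with -1.43 in osteoblasts and 1.44 in endothelial cells (difference -2.87, adjusted p = 0.380), followed by Lepr with -0.41 and 1.87 (difference -2.28, adjusted p = 0.276). Neither passed.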

How the data were processed

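The 12 arrays, 3 per group, are of the Affymetrix type Mouse Gene 1.0 ST and hold RNA of sorted osteoblasts or endothelial cells. Per the labels' protocols, RNA was amplified by single primer isothermal amplification (NuGEN Ovation Pico WTA). The submitters' processing notes name the package affy; its version and the way probes were summarised are not given in the labels. Values were deposited by the authors on the log2 scale and were not renormalized. Amplification from 5000 cells can distort proportions, and values near the floor understate differences. Of 34760 probe sets, 21640 had 1 gene symbol in the platform annotation, 1321 several and 11799 none; 21553 matched by Entrez number a RefSeq table of GRCm38.p6. The brightest probe set per gene (19937 genes) was used. Genes were tested if above an array's 40th percentile in at least 3 of 12 arrays (14217 genes).

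limma 3.58.1 in R 4.3.3 fitted 1 coefficient per group to all 12 arrays (eBayes defaults, 8 residual degrees of freedom), so the groups share a spread. Adjusted p are limma's, two-sided, by Benjamini-Hochberg over all genes tested. The steps were tested on simulated data. The number of arrays limits the precision. Lists (30 of pathways, 19 of cell markers) are described by counts and medians only. Named were genes past the test, the 6 highest and lowest statistics, the 8 highest and lowest differences among bright genes (group mean of at least 8) with groups apart and an unadjusted p under 0.05, up to 4 members per list by p, genes past the test of the difference of effects, the sort and bone genes, and any marker gene. Hspb1, Hspe1, Tnfsf11, Tnfrsf11b, Ptgs2, Anxa2, Fkbp5, Plaur, Fos, Junb, Egr1, Lcn2, Cp, Hspa8, the relatives of Mir99a and the list members outside that number were named after their values were seen. Members and lists were chosen with earlier results of these data known. Alternatives were other normalizations, filters, probe set rules, priors, array weights, arrays left out, marker covariates, a fold limit and the replicate number as a block.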

Additional observations from a re-analysis of the deposited data

Results flagged for a closer look

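4 genes had a tumor effect that differed between osteoblasts and endothelial cells (limma, difference of effects, osteoblasts minus endothelial cells, log2 ± SE). Chil1 differed by 3.34 ± 0.36 (adjusted p = 0.0179): osteoblasts of tumor-bearing mice were higher in 3 of 3 arrays, while the endothelial effect was -0.02. For Mmp13, a collagenase of bone and hypertrophic cartilage, the difference was -2.22 ± 0.24 (adjusted p = 0.0179). Its osteoblast arrays read 12.19, 12.17 and 12.02 against 12.31, 12.07 and 12.11, and the endothelial means were 7.29 with and 5.11 without tumor. Amy1, an amylase gene with close copies, behaved alike in its values, with a difference of -2.64 ± 0.30 (adjusted p = 0.0179), osteoblast arrays of 9.20, 8.76 and 8.81 against 9.24, 9.01 and 8.70, and endothelial means of 8.04 and 5.47. The tumor-free endothelial means of Mmp13 and Amy1 lay below the lit level of the osteoblast arrays (5.51 to 5.59). The background of the array thus limits the size of these differences. Exosc7, a subunit of the RNA exosome, differed by 1.48 ± 0.19 (adjusted p = 0.0472), with 7.46, 7.06 and 7.07 against 6.50, 6.86 and 6.66 in osteoblasts and endothelial means of 6.90 and 7.86. With 1 array left out, the adjusted p of Chil1 was over 0.05 without tumor-free osteoblast replicate 1, any endothelial tumor-bearing replicate, or endothelial tumor-free replicates 2 or 3 (0.0631 to 0.0925). Amy1 was over it without tumor-bearing osteoblast replicates 2 or 3, tumor-free osteoblast replicate 1, any endothelial tumor-bearing replicate or endothelial tumor-free replicate 2 (0.0527 to 0.0953). Mmp13 was over it without tumor-bearing osteoblast replicates 2 or 3, tumor-free osteoblast replicates 1 or 3, endothelial tumor-bearing replicates 1 or 3, or endothelial tumor-free replicates 2 or 3 (0.0503 to 0.0925). Exosc7 stayed past the test without tumor-bearing osteoblast replicate 1 or tumor-free osteoblast replicate 2 and in no other fit with 1 array left out (adjusted p up to 0.222).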

How the results depend on the processing

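Of the 14217 genes, 8 passed in the reported fit. The count was 5 after quantile normalization, 1 with array weights, 0 from the 6 osteoblast arrays alone (1046 at an unadjusted p under 0.05), 0 with the cartilage marker median as covariate in those 6 arrays (1152 at an unadjusted p under 0.05), 1 with the blood marker median instead, and 45 without replicate 3 of both osteoblast groups, 7 of the 8 among them. It was 6 with median centring, 6 with a fold limit of 2, 8 with a prior that follows brightness, with the 60th percentile as filter and with probe sets averaged per gene, and 11 with no filter. Without 1 array it ran from 1 to 25. Chil1 passed in 21 of 24 alternatives (adjusted p 3.16e-05 to 0.375, limma) and was lost in the 3 fits of the osteoblast arrays alone; Mir99a passed in 12 of 24, S100a10 in 10, Myc in 9, Tada2b and Ftsj1 in 8, Eif3m in 7, and Scn7a in 6 of 23. The cause of these losses was not tested; the fits of 6 arrays have fewer samples. The replicate number as a block called 1 gene, and 1 for the difference of effects. Deviations of same-numbered arrays correlated at -0.015, 0.049 and 0.049 between the osteoblast groups, so these values show no pairing by number between those groups. Osteoblast and endothelial arrays of the same number were not compared, so a pairing between the cell types was not tested.

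Genes with groups apart numbered 2067, 3153 with no filter, which tests more genes, 5383 without replicate 3 of both osteoblast groups and 3351 to 3848 without 1 osteoblast array, where fewer arrays have to be in order. The difference of effects passed for 4 genes, for 8 without replicate 3 of both osteoblast groups and for 0 to 7 without 1 array. Differences near 0 turned sign: Sp7 was 0.00904 with median centring, 0.103 with array weights, 0.0659 without replicate 3 of both groups and -0.233 to 0.284 without 1 array. Col1a1 was -0.0319 after quantile normalization and -0.0868 to 0.160 without 1 array, Col2a1 0.0143 with array weights and -0.397 to 0.340 without 1 array. Without 1 array Mmp13 was -0.0851 to 0.0379, Amy1 -0.203 to 0.0652, Ptprc -0.167 to 0.713 and Acan -0.0834 to 1.32. Values near the background of the array limit dim genes, such as Scn7a and Mir99a in tumor-bearing osteoblasts and Mmp13 and Amy1 in tumor-free endothelial cells.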
